A study of Mus musculus with 4 samples.

Results

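Lymphoid priming is the low-level transcription of genes of the B and T cell lineages in progenitors that are not committed to those lineages. It was examined here through 10 genes, namely Dntt, Il7r, Rag1, Rag2, Ebf1, Pax5, Ikzf1, Ikzf3, Cd79b and Blnk. A probe set, the group of array probes that reports 1 transcript region, was taken where the platform annotation gave it 1 of these symbols and no other. This found 21 probe sets for all 10 genes, of 45101 probe sets and 18193 named genes on the array. For each gene the brightest probe set by its mean value leads, and all 21 are reported.

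The groups were 4, with 1 Affymetrix array each, all of unstimulated cells sorted from mice of a mixed C57BL6J/129SV background. They were Trib1-/- MDP, wild-type MDP, Trib1-/- GMP and wild-type GMP. GMP are granulocyte monocyte progenitors, and MDP is the label of cells whose type is given as macrophage dendritic cell, a name usually used for the progenitor of monocytes and dendritic cells. Neither the age of the mice, nor the gates of the sort, the animals pooled on an array or the deleted part of Trib1 is given in the sources used here.

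In bone marrow, lymphoid-primed progenitors open a set of genes in steps as they give up myeloid potential. Ikaros, encoded by Ikzf1, acts early, the interleukin 7 receptor and the E proteins then support expression of Ebf1, and Ebf1 and Pax5 together fix the B cell programme. The recombinase genes and Dntt are used to assemble and diversify antigen receptor genes, and Cd79b and Blnk carry the signal of the finished receptor. Progenitors of dendritic cells can carry part of this programme without giving rise to lymphocytes.

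Values are log2 RMA values, so a difference of 1 is 2-fold, and a gene was counted as apart at that size. With 1 array a group no difference has a replicate check, and none was tested. A gene was used where its highest value reached 3.29, the median of all values, called the floor below, which left 11653 genes. Array medians lay between 3.27 and 3.31. The spread that could be measured, that between probe sets of the same gene on the same arrays, had an SD of 0.38 for Trib1-/- minus wild type in MDP and 0.37 in GMP. It was 0.42 for MDP minus GMP in Trib1-/- cells and 0.54 in wild type (4922 genes). The wild-type GMP array stood somewhat apart from the MDP arrays. It correlated with them at 0.950 (Trib1-/-) and 0.948 (wild type) over all probe sets. The Trib1-/- GMP array did so at 0.967 and 0.964. The GMP arrays correlated with each other at 0.977, and the MDP arrays at 0.976. The contrast of progenitors in wild type and that of genotypes in GMP rest on the wild-type GMP array, and the other contrasts do not use it. Basophil and mast cell genes were high on it, with a summed linear value over 8 genes of 64.0 in Trib1-/- MDP, 77.8 in wild-type MDP, 202 in Trib1-/- GMP and 485 in wild-type GMP. Of the 7 above the floor, 4 were at least 2-fold lower in Trib1-/- than in wild-type GMP, among them Gzmb (-3.37) and Cpa3 (-2.37). Gzmb read 1.62 in Trib1-/- GMP, below the floor, so the size of its difference is uncertain. The part of the basophil and mast cell genes in the differences of the lymphoid genes was not tested. Markers fitted the labels in part. Of 9 GMP genes, 7 were at least 2-fold lower in Trib1-/- MDP than in Trib1-/- GMP and all 9 in wild type, and of 6 MDP genes, 4 and 5 were at least 2-fold higher. Kit, the stem cell factor receptor by which the MDP is usually gated, read 2.69 in Trib1-/- MDP and 2.43 in wild-type MDP, below the floor, against 5.39 and 6.01 in GMP of the same genotypes. The 2 probe sets of Trib1 read 4.71 and 5.56 in Trib1-/- MDP, 5.13 and 5.99 in wild-type MDP, 5.19 and 5.10 in Trib1-/- GMP, and 4.85 and 4.95 in wild-type GMP. They do not check the labels, because the probes' place relative to the deletion is not given, and each direction below rests on the label of the array.

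Sequence windows around the gene start (250 bases before and 50 after, RefSeq, GRCm38.p6) were found for 8 of the 10 genes, in 10 windows, and not used for Ikzf3 and Cd79b. Those of the 3 genes that read at least 2-fold higher in wild-type MDP than in wild-type GMP are shown, since the same comparison turns on them. Capitals mark the E-box letters CANNTG, the core bound by E proteins such as those encoded by Tcf3, Tcf4 and Tcf12. The Dntt window lies on the plus strand at chr19:41029025-41029324, that of Il7r on the minus strand at chr15:9529827-9530126 and that of Blnk on the minus strand at chr19:40994172-40994471.
Dntt: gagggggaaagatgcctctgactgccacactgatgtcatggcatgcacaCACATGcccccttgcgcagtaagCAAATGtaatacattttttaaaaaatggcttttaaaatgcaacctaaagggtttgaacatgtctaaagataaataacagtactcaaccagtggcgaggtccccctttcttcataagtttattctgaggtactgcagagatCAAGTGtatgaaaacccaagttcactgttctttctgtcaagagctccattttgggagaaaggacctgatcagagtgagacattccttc
Il7r: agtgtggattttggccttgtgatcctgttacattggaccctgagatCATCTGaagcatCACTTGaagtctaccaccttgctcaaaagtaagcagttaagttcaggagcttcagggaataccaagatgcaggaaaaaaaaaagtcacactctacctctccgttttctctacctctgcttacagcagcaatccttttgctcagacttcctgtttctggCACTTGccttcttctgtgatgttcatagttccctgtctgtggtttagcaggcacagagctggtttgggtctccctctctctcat
Blnk: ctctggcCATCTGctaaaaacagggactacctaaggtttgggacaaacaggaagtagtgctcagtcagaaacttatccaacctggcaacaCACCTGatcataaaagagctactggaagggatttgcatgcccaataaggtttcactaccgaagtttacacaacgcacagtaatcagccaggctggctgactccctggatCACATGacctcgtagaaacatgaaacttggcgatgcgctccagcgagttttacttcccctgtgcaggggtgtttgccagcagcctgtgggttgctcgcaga

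Each of these windows held 3 E-boxes, and 17.6% of 32851 windows of the same length held at least 3. Rag1 held 4, Rag2 held 2, Pax5 held 1, and the later of the Ebf1 windows held 2. The other Ebf1 window and both Ikzf1 windows held 0. On either strand, the letters TTGCNNAA, a form of the C/EBP site, stood once in the Il7r window at base 77 and in none of the other 9 windows, against 10.8% of all windows. C/EBP proteins are the factors that Trib1 targets for degradation together with COP1. TGGGAA, the Ikaros core, occurred once in Rag1 and once in the later Ebf1 window (25.6% of all windows), and GAGGAA, a core of PU.1 sites, once in Rag2 and once in the later Ebf1 window (28.3%). These matches describe letters and do not show binding.

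**Figure D1:**
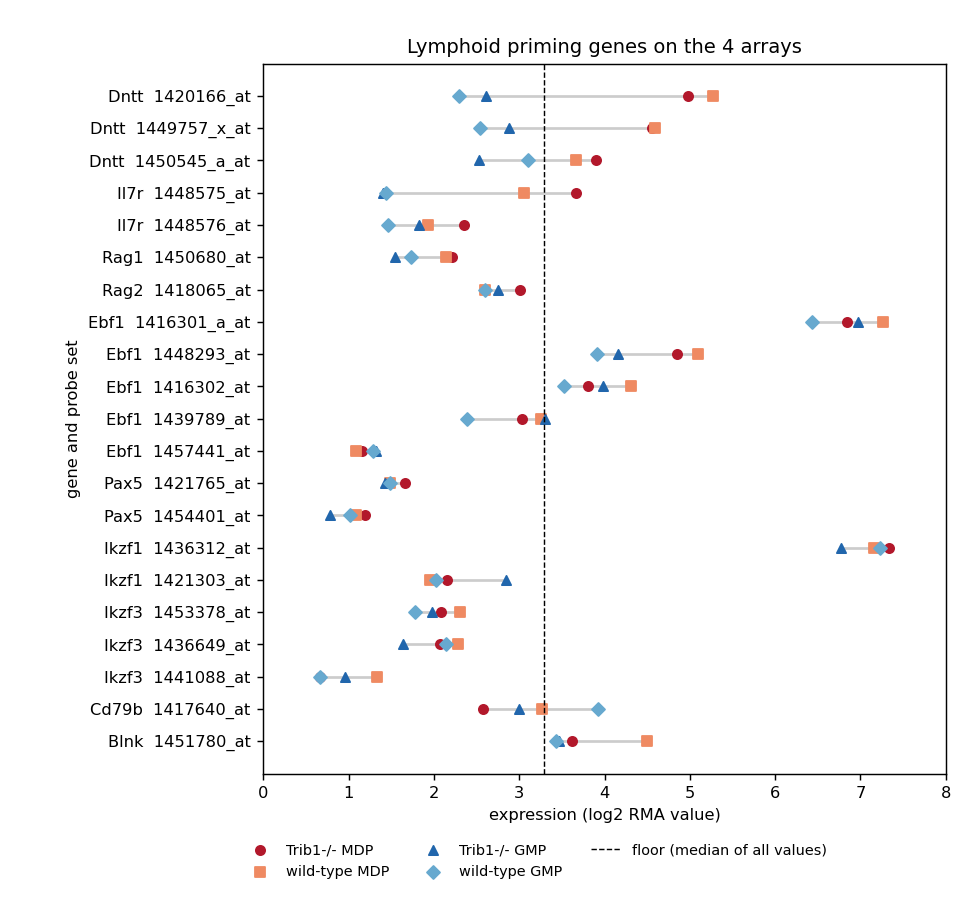
Log2 RMA values (horizontal axis) of the 21 probe sets of the 10 lymphoid priming genes (rows) on the 4 arrays, 1 point per array, with the floor of 3.29 as a dashed line. The 3 Dntt rows have both MDP arrays to the right of both GMP arrays, the leading Ebf1 and Ikzf1 rows lie above the floor on all arrays, and the rows of Rag1, Rag2, Pax5 and Ikzf3 lie below it.

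Of the 10 genes, 6 reached the floor on at least 1 array (Dntt, Il7r, Ebf1, Ikzf1, Cd79b and Blnk) and 4 did not (Rag1, Rag2, Pax5 and Ikzf3). Ebf1, Ikzf1 and Blnk were above it on all 4 arrays. Dntt was above it only on the MDP arrays, Il7r only on Trib1-/- MDP, and Cd79b only on wild-type GMP. These 3 genes passed through the arrays where they were high, so a count over the 6 genes is given as a description and supports nothing.

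Dntt was the member with the largest difference between the progenitors. It encodes terminal deoxynucleotidyl transferase, the polymerase that adds untemplated nucleotides at the joints of antigen receptor genes. Its leading probe set read 4.98 in Trib1-/- MDP and 5.27 in wild-type MDP, against 2.61 in Trib1-/- GMP and 2.30 in wild-type GMP. Both MDP arrays thus read above both GMP arrays. The difference was 2.37 in Trib1-/- cells and 2.97 in wild type. Both GMP values lay below the floor, so the size of these differences is uncertain, and with them raised to the floor they were 1.69 in Trib1-/- cells and 1.98 in wild type. In these bulk samples, fewer cells that carry a transcript and less of it in each cell cannot be told apart.

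The other Dntt probe sets ran the same way. The second, which by its suffix can hybridise to other transcripts, read 4.56 in Trib1-/- MDP and 4.59 in wild-type MDP, against 2.88 in Trib1-/- GMP and 2.54 in wild-type GMP. The third read 3.90 in Trib1-/- MDP and 3.66 in wild-type MDP, against 2.53 in Trib1-/- GMP and 3.10 in wild-type GMP. Their differences between progenitors were 1.68 and 1.37 in Trib1-/- cells, and 2.05 and 0.57 in wild type, so the third was below 2-fold in wild type. The GMP values of these probe sets lay below the floor too.

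Il7r encodes the alpha chain of the interleukin 7 receptor, the cytokine receptor on which early lymphocytes depend. It read 3.67 in Trib1-/- MDP and 3.06 in wild-type MDP, against 1.41 in Trib1-/- GMP and 1.44 in wild-type GMP. The MDP arrays were again above the GMP arrays, by 2.26 in Trib1-/- cells and 1.63 in wild type. The weaker probe set kept this order within each genotype, with 2.36 in Trib1-/- MDP and 1.94 in wild-type MDP against 1.83 in Trib1-/- GMP and 1.46 in wild-type GMP. Its differences were only 0.52 in Trib1-/- cells and 0.47 in wild type, and it was below the floor on all arrays. Since only 1 value of Il7r reached the floor, raising the others to it left 0.38 in Trib1-/- cells and 0 in wild type, so the 2-fold size of the Il7r difference rests on values near the background.

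Blnk encodes the adaptor that links Syk to Btk and phospholipase C below the B cell receptor. It is also expressed in macrophages. It read 3.61 in Trib1-/- MDP and 4.50 in wild-type MDP, against 3.46 in Trib1-/- GMP and 3.43 in wild-type GMP. A single array, wild-type MDP, stood above the other three. The difference between progenitors was 0.15 in Trib1-/- cells and 1.07 in wild type. Blnk and Dntt are adjacent protein-coding genes on chromosome 19, but Dntt did not share this pattern. A list of 10 resident macrophage genes was also high on the wild-type MDP array, with a summed linear value of 109 in Trib1-/- MDP, 485 in wild-type MDP, 113 in Trib1-/- GMP and 141 in wild-type GMP. Of its 8 members above the floor, 7 were at least 2-fold lower in Trib1-/- than in wild-type MDP, among them Vcam1 (-3.21) and Slc40a1 (-3.03). Of its complement genes, C1qb read 1.94 in Trib1-/- MDP and 4.27 in wild-type MDP, and C1qa and C1qc were below the floor on all arrays. The part of these cells in the Blnk value was not tested.

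Ebf1 encodes early B cell factor 1, a pioneer factor of the B cell lineage. Its leading probe set read 6.84 in Trib1-/- MDP and 7.26 in wild-type MDP, against 6.98 in Trib1-/- GMP and 6.43 in wild-type GMP. The order of the progenitors thus differed with genotype, at -0.13 in Trib1-/- cells and 0.83 in wild type. In wild type the 3 Ebf1 probe sets above the floor on all arrays read higher in MDP, by 0.78 to 1.19, and only the second did so by at least 2-fold. In Trib1-/- cells the second read 0.68 and the other two read -0.13 and -0.18. These 3 were designed from the same accession and share their source. The fourth read 0.86 in wild type, between values below the floor, and -0.27 in Trib1-/- cells. The fifth Ebf1 probe set lay between 1.08 and 1.32 on all arrays, below the floor, so the probe sets of Ebf1 do not report like signals.

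Ikzf1 encodes Ikaros, the zinc finger factor needed for lymphoid development and also expressed in myeloid progenitors. It read 7.34 in Trib1-/- MDP and 7.16 in wild-type MDP, against 6.78 in Trib1-/- GMP and 7.23 in wild-type GMP. Trib1-/- GMP was the lowest, and the other three lay within 0.18 of each other. The difference between progenitors was 0.56 in Trib1-/- cells (-0.07 with both probe sets averaged) and -0.08 in wild type (0.06 after centring each array on its median above the floor and 0.10 after cyclic loess). Its other probe set was below the floor on all arrays and read highest in Trib1-/- GMP, at 2.84, where the leading probe set read lowest.

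Cd79b encodes the beta chain that carries the signal of the B cell receptor. Its 1 probe set read 2.58 in Trib1-/- MDP and 3.26 in wild-type MDP, against 2.999 in Trib1-/- GMP and 3.93 in wild-type GMP. It was the only member above the floor that was lower in MDP in both genotypes on its leading probe set, at -0.42 in Trib1-/- cells and -0.66 in wild type. Its partner Cd79a went the other way, with 4.48 in Trib1-/- MDP and 4.62 in wild-type MDP against 4.12 in Trib1-/- GMP and 3.44 in wild-type GMP.

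The 4 members below the floor have 7 probe sets, which read between 0.67 and 3.01. Rag1 and Rag2 are neighbours on chromosome 2 and encode the recombinase that cuts antigen receptor genes. Rag1 read 2.21 in Trib1-/- MDP and 2.14 in wild-type MDP, against 1.54 in Trib1-/- GMP and 1.73 in wild-type GMP. Rag2 read 3.01 in Trib1-/- MDP and 2.60 in wild-type MDP, against 2.75 in Trib1-/- GMP and 2.60 in wild-type GMP. Pax5, the factor that fixes B cell identity, read at most 1.66, and Ikzf3, which encodes the Ikaros relative Aiolos of later B cells, at most 2.31. None of their differences in any of the 4 comparisons exceeded 0.67 in size, and at these values a difference was not detectable.

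Counted together, 2 of the 6 members above the floor (Dntt and Il7r) were at least 2-fold higher in MDP in Trib1-/- cells and 3 (Dntt, Il7r and Blnk) in wild type, with 0 lower in either. Of all 11653 genes, 2.75% were at least 2-fold higher and 4.08% lower in MDP in Trib1-/- cells (6.82% in either direction), and 4.16% were higher and 12.4% lower in wild type (16.6% in either direction). The median of the 6 differences was 0.36 in Trib1-/- cells and 0.95 in wild type, where all genes had medians of -0.01 and -0.04. The progenitor contrasts have no array in common. Dntt and Il7r reached the floor only through MDP arrays, which favours this direction, so their like direction in both genotypes is only a description. With 32 added to the linear values, which shrinks differences of weak signals, Dntt read 0.74 in Trib1-/- cells and 0.93 in wild type, and 0 members were 2-fold apart.

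**Figure D2:**
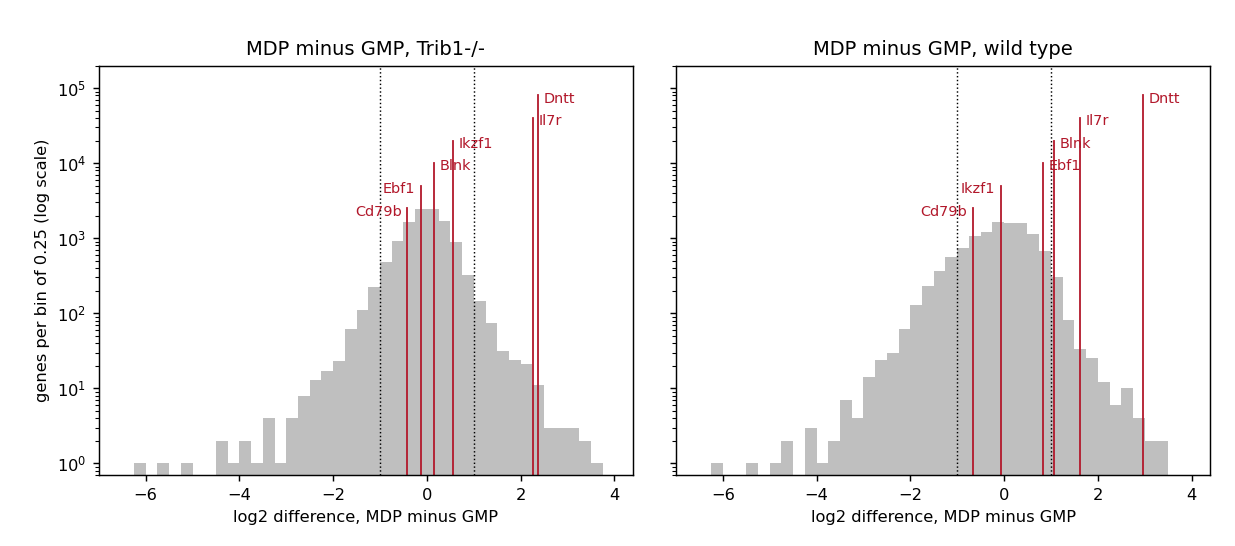
Log2 differences of MDP minus GMP (horizontal axis) in Trib1-/- cells (left) and wild type (right) for 11653 genes, as numbers per bin on a log scale (grey bars), with the 6 members above the floor as red lines and the 2-fold limits dotted. Dntt and Il7r lie in the right tail in both genotypes, and Blnk passes the limit in wild type at 1.07.

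Loss of Trib1 was the other question. None of the 6 members was at least 2-fold apart between the genotypes in MDP or in GMP, where 2.63% and 3.64% of all genes were. Of all genes, 1.10% were at least 2-fold higher and 1.53% lower in Trib1-/- MDP, and 0.481% were higher and 3.16% lower in Trib1-/- GMP. The median of their differences was -0.35 in MDP and 0.00 in GMP, beside 0.01 and -0.06 for all genes. The 2 genotype comparisons have no array in common.

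Cd79b was the only one of the 6 that was lower in the Trib1-/- array of both progenitors, at -0.69 in MDP and -0.93 in GMP. Of all genes, 9.87% had a difference as large in MDP and 4.82% in GMP. Its MDP values both lay below the floor, so only the GMP difference involves a value above it, and with the Trib1-/- value raised to the floor it was -0.64. Blnk was lower by 0.89 on the log2 scale in Trib1-/- MDP and differed by 0.03 in GMP. With 4.28% of all genes as far apart in MDP, this was the largest difference of the members there. All 4 Blnk values were above the floor, but those other than wild-type MDP lay close to it. Blnk has 1 probe set, and with 32 added to the linear values its difference in MDP was -0.30.

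Il7r read 0.60 higher in Trib1-/- MDP, and its weaker probe set 0.42 higher. Neither the wild-type MDP value nor any value of the weaker probe set reached the floor, and with such values set to it the differences were 0.38 and 0. In GMP these were -0.03 (0.07 after centring) and 0.37, between values all below the floor. Dntt differed by -0.29 in MDP and 0.32 in GMP on its leading probe set. The third probe set read the opposite, 0.24 in MDP and -0.56 in GMP, so no direction of genotype can be given for Dntt.

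Ebf1 read lower in Trib1-/- MDP and higher in Trib1-/- GMP on the 3 probe sets above the floor on all arrays. On these, which share an accession, the differences ranged from -0.25 to -0.50 in MDP and from 0.25 to 0.55 in GMP. The fourth reached the floor only on Trib1-/- GMP, at 3.30, and its -0.22 in MDP and 0.91 in GMP were 0 and 0.01 with values raised to the floor. On the leading probe set the differences were -0.42 in MDP and 0.55 in GMP, beside an SD between probe sets of 0.38 and 0.37 that leaves out the spread between animals and arrays. With the mean of all Ebf1 probe sets they were -0.26 and 0.44, and without suffixed probe sets -0.25 and 0.25, so only the GMP mean of these exceeded the SD. Ikzf1 read 0.18 in MDP and -0.46 in GMP (0.18 in GMP with both probe sets averaged), and its weaker probe set, below the floor, read 0.19 and 0.82.

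**Figure D3:**
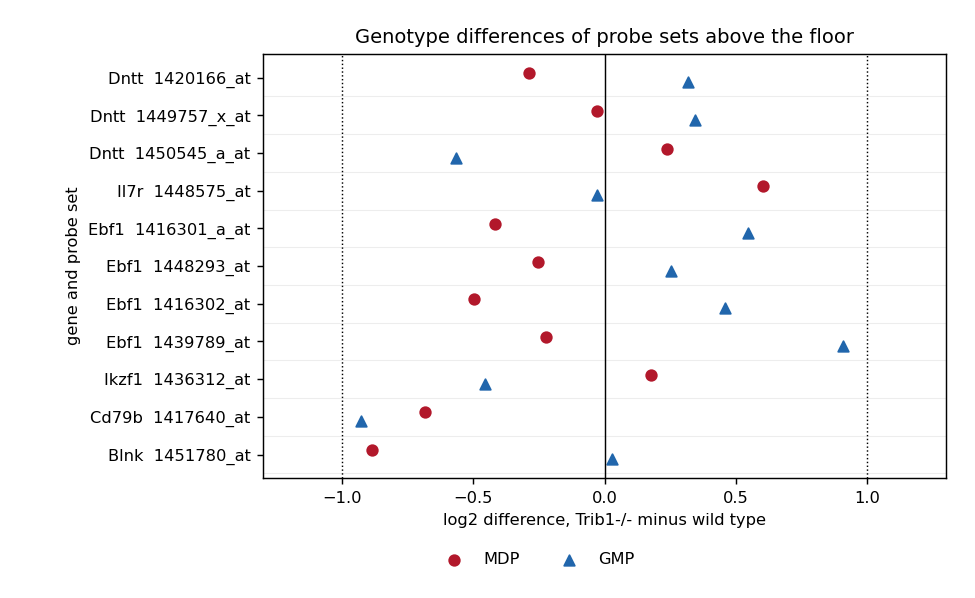
Log2 differences of Trib1-/- minus wild type (horizontal axis) in MDP (red circles) and GMP (blue triangles) for the 11 probe sets above the floor (rows), with the 2-fold limits dotted. None passes a limit, the 4 Ebf1 rows have the circle left and the triangle right of 0 (the fourth mostly from values below the floor), and Cd79b has both to the left.

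Other genes of the lymphoid programme were taken from 3 lists. Of 29 early lymphoid regulators and receptors, 24 were above the floor. Between progenitors 5 were at least 2-fold higher and 1 lower in Trib1-/- MDP, and 2 were higher and 5 lower in wild-type MDP, with medians of 0.23 and 0.29. Flt3, the receptor that marks lymphoid and dendritic priming, led the higher genes, at 2.84 in Trib1-/- cells and 1.90 in wild type, followed in Trib1-/- cells by Bcl11a (1.38), a regulator of lymphoid and plasmacytoid dendritic cells, the survival gene Bcl2 (1.34) and Satb1 (1.24), a chromatin organiser of early lymphocytes. The Flt3 values in GMP, 2.66 in Trib1-/- and 2.95 in wild type, lay below the floor, so the sizes of its differences are uncertain. Flt3 is also among the MDP genes counted above. Tcf4, the E protein of plasmacytoid dendritic cells, read 1.04 in Trib1-/- cells and 1.33 in wild type. Cd27, a receptor of the tumour necrosis factor family found on lymphoid progenitors, was lower in MDP in both genotypes, at -2.42 and -2.22, and so differed in direction from Dntt and Il7r. In wild type Lmo2 (-1.67), Cd37 (-1.27) and Ikzf2 (-1.18), which encodes the Ikaros relative Helios, were lower too. Between genotypes Cd27 was the only gene of this list at least 2-fold apart, at -1.24 in MDP and -1.04 in GMP. Its Trib1-/- MDP value of 2.41 was below the floor, against 3.65 in wild-type MDP. The sizes of its genotype difference in MDP and of its progenitor difference in Trib1-/- cells are therefore uncertain. In GMP both values, 4.83 in Trib1-/- and 5.87 in wild type, were above the floor.

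Of 24 genes of the pre-B and B cell receptor and its signalling, 15 were above the floor. In Trib1-/- cells 1 was at least 2-fold higher in MDP, Pik3ap1 (1.07), an adaptor to phosphoinositide 3-kinase. In wild type 3 were higher, namely Pik3ap1 (1.51), Cd79a (1.19) and the repressor gene Bach2 (1.03), and 2 were lower, Cd24a (-1.17) and Cd72 (-1.02). Cd72 read 2.36 in wild-type MDP, below the floor, and 3.38 in wild-type GMP, just above it, so the size of its difference is uncertain. The list's medians were 0.15 in Trib1-/- cells and 0.01 in wild type. Syk and Btk, the kinases on either side of Blnk, read -0.47 and -0.15 in Trib1-/- cells and -0.41 and -0.47 in wild type. Between genotypes 0 of the 15 were apart in MDP and 1 in GMP, the receptor gene Cd72 (-1.72), whose Trib1-/- value of 1.66 was below the floor.

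Of 14 genes of RAG cleavage and end joining, which include Dntt, Rag1 and Rag2, 6 were above the floor. Dntt was the only one at least 2-fold higher in MDP in Trib1-/- cells. In wild type Xrcc4 (1.04), of the ligase complex, was higher too, and Xrcc6 (-1.01), which encodes Ku70, was lower. The medians were -0.14 in Trib1-/- cells and 0.09 in wild type, and 0 of the 6 were apart between genotypes in MDP or GMP. The large Dntt difference was thus not accompanied by a shift of the median of this list.

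Markers of mature cells were set beside these values. Of 11 measured B cell markers 5 were above the floor, and Vpreb1, Vpreb3, Cd22, Blk, Fcer2a and Pou2af1 were below it on all arrays. In MDP 4 of these 5 read higher in Trib1-/- cells and all 5 in wild type, with medians of 0.35 and 0.56. The summed linear value over all 11 measured B cell markers was 105 in Trib1-/- MDP and 109 in wild-type MDP. It was 82.7 in Trib1-/- GMP and 73.8 in wild-type GMP. Of 11 T cell markers 6 were above the floor, and Cd3d, Cd3g, Lat, Themis and Cd8a were below it throughout. In MDP 5 of these 6 read higher in Trib1-/- cells and all 6 in wild type, with medians of 0.28 and 0.62. The sums over all 11 T cell markers were 273 in Trib1-/- MDP and 295 in wild-type MDP. They were 222 in Trib1-/- GMP and 185 in wild-type GMP. Of 8 measured NK cell markers 3 were above the floor. The sums over all 8 were 61.5 in Trib1-/- MDP and 52.7 in wild-type MDP, against 54.7 in Trib1-/- GMP and 54.1 in wild-type GMP.

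Plasmacytoid dendritic cells are known to carry Dntt and Rag transcripts in part of their number. Of 11 of their markers measured, 8 were above the floor. Of these, 7 read higher in MDP in Trib1-/- cells and all 8 in wild type, with medians of 0.33 and 0.90. Of all 11653 genes, 48.4% read higher in MDP in Trib1-/- cells and 47.2% in wild type, with medians of -0.01 and -0.04. The medians of the B cell, T cell and plasmacytoid lists thus all lay above those of all genes. Some list genes, such as Ms4a1, Fcrla and Ly6d, reached the floor only on MDP arrays. That favours higher values in MDP, so these counts and medians are only a description. At least 2-fold higher were Spib (1.43) and Tcf4 (1.04) in Trib1-/- cells, and Spib (1.38), Tcf4 (1.33) and Siglech (1.10) in wild type. The summed linear value over all 11 was 666 in Trib1-/- MDP and 700 in wild-type MDP, against 388 in Trib1-/- GMP and 330 in wild-type GMP. Tcf4, also in the early lymphoid list, was the brightest gene on every array and weighs most in these sums. It read 8.84 in Trib1-/- MDP, 8.80 in wild-type MDP, 7.80 in Trib1-/- GMP and 7.47 in wild-type GMP. Irf7, Lag3 and Pacsin1 were below the floor on all arrays. The part of any of these cells in the Dntt and Il7r values was not tested.

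**Figure D4:**
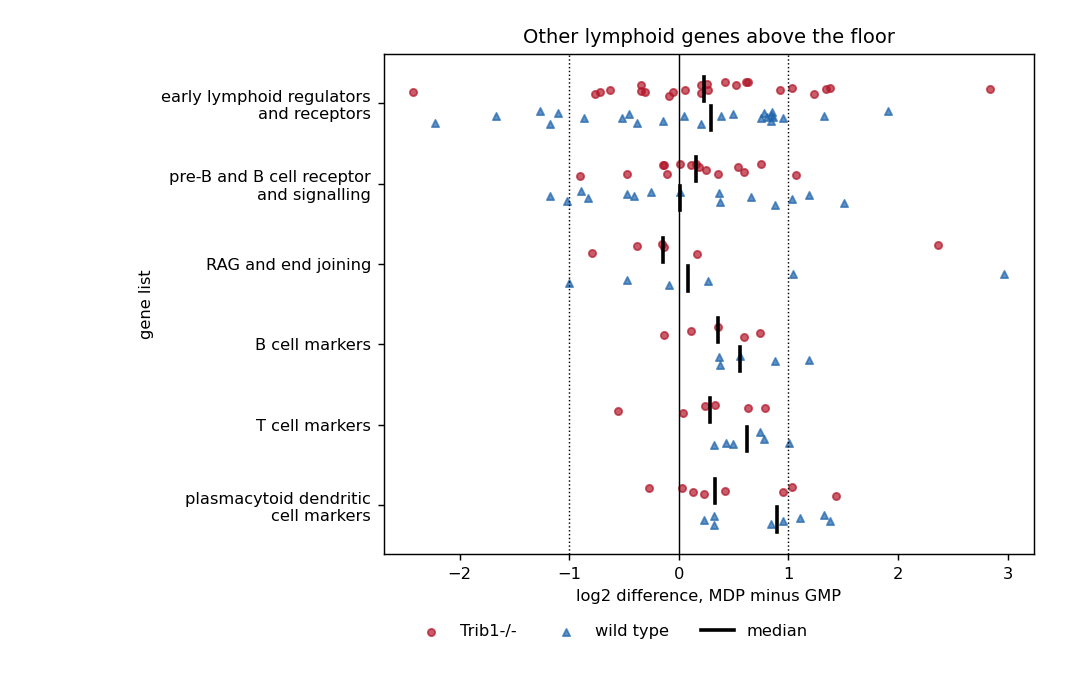
Log2 differences of MDP minus GMP (horizontal axis) for genes above the floor in 3 lymphoid lists and 3 lists of cell type markers (rows), in Trib1-/- cells (red circles) and wild type (blue triangles), with list medians as black bars and the 2-fold limits dotted. Points are spread vertically within a row for legibility, and Dntt is the rightmost point of the list of RAG and end joining, at 2.37 and 2.97.

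For the 4 members that spanned at least 1 over the arrays, the 3 genes with the most similar profile were sought, by the Euclidean distance between log2 profiles centred on their own mean over 4 arrays. Those of Dntt were Epb41l4b (distance 0.21), Rtn4rl1 (0.43) and Cd83 (0.44), the last a maturation marker of dendritic cells. Those of Il7r were the cytokine receptor gene Lifr (0.26), Dpysl2 (0.29) and Prdx4 (0.33). Cd79b was nearest to the cell cycle gene Cks1b (0.06), Exosc3 (0.07) and Ralgps2 (0.08), and Blnk to Mucl1 (0.04), Smurf1 (0.10) and 2310061N02Rik (0.10). Over only 4 arrays, such likeness says nothing of shared function or control.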

How the data were processed

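The authors deposited 1 table of 45101 probe sets on 4 arrays. Total RNA was extracted with Trizol and amplified and labelled with the NuGEN Ovation system, per the labels' protocols, and the values were made with RMA, per the submitters' processing notes. RMA makes the distributions of the arrays alike, so a difference in total RNA per cell cannot be seen. The deposited values were taken as log2, a scale inferred from their range of 0.14 to 14.5. Genes were named from the platform annotation: 34945 probe sets had 1 symbol, 932 several and 9160 none, and 64 were controls. A RefSeq gene table held the gene identifier of 34741 of those with 1 symbol.

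The number of arrays, 1 a group, limits the precision, and log2 differences were described without tests. The members and gene lists were chosen with earlier results of these data known. Named genes are all members, list members at least 2-fold apart (at most 4 a list and comparison, largest first) and the 3 nearest profiles; Kit, Syk, Btk, Vcam1, Slc40a1, C1qb, Gzmb, Cpa3, the natural killer cell genes and genes named for a direction or a level below 2-fold were chosen after their values were seen. Alternatives changed the floor (none, or the 75th percentile), raised values to the floor, or used the mean of probe sets, leaving out probe sets with the suffix _s_at, _x_at or _a_at, cyclic loess (3 iterations, limma 3.58.1), centring, adding 32 to the linear value, and size rules of 1.5-fold and 4-fold. Other probe sets of members were added after the data were seen. The counting was tested on simulated data.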

Additional observations from a re-analysis of the deposited data

Results flagged for a closer look

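With 1 array a group, opposite signs of the same contrast are enough to single out a gene, and none of these differences between groups was tested. In the genotype contrast, Trib1-/- minus wild type, Dntt, Il7r, Ebf1, Ikzf1 and Blnk had opposite signs in MDP and GMP. How many of all genes had opposite signs was not counted, so it cannot be said whether this is particular to these genes. Dntt read -0.29 in MDP and 0.32 in GMP, and the third probe set turned both signs. Il7r read 0.60 in MDP and -0.03 in GMP (0.07 after centring), where all its values lay below the floor. Ebf1 read -0.42 in MDP and 0.55 in GMP, or -0.26 and 0.44 with its probe sets averaged, and -0.25 and 0.25 without suffixed probe sets. Ikzf1 read 0.18 in MDP and -0.46 in GMP (0.18 with both probe sets averaged). Blnk read -0.89 in MDP and 0.03 in GMP (-0.01 after cyclic loess). In the progenitor contrast, MDP minus GMP, Ebf1 read -0.13 in Trib1-/- cells and 0.83 in wild type, and Ikzf1 read 0.56 in Trib1-/- cells and -0.08 in wild type (0.06 after centring). The SD between probe sets was 0.38 in MDP and 0.37 in GMP.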

How the results depend on the processing

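No paired analysis was possible because each group has 1 array. At 2-fold, 2 members and 795 genes were apart between progenitors in Trib1-/- cells and 3 members and 1930 genes in wild type, and between genotypes 0 members and 306 genes in MDP and 0 members and 424 genes in GMP. With a floor at the 75th percentile, 1 member was apart between progenitors in Trib1-/- cells and 1 in wild type (Dntt in each), and between genotypes 117 genes in MDP and 263 in GMP. This floor, 4.78, left 6925 genes in place of 11653. Il7r (at most 3.67) and Blnk (at most 4.50) did not reach it and were not counted, with their differences unchanged. Raising values to the floor left 1 member in Trib1-/- cells, and 142 genes between genotypes in MDP. The mean of probe sets gave 1 member and 501 genes in Trib1-/- cells and 1228 genes in wild type, and between genotypes 184 in MDP and 279 in GMP. It left 9826 genes above the floor. Il7r fell below the floor there, with differences of 1.39 in Trib1-/- cells and 1.05 in wild type that were not counted. Adding 32 gave 0 members and 126 genes in Trib1-/- cells and 0 members and 365 genes in wild type, and between genotypes 3 genes in MDP and 16 in GMP. At 1.5-fold, 2664 genes were apart in Trib1-/- cells and 5 members and 4742 genes in wild type, and between genotypes 3 members and 1721 genes in MDP and 1 member and 2151 genes in GMP. At 4-fold, 100 genes were left in Trib1-/- cells, 1 member and 188 genes in wild type, and between genotypes 7 genes in MDP and 7 in GMP. Centring on the median above the floor moved the share of higher genes among those apart between progenitors in wild type to 41.1%, against 25.1%, and between genotypes in GMP to 30.1%, against 13.2%. It moved the median of all genes by 0.13 and 0.10 in these comparisons and left the counts of members at 2-fold unchanged. Adding 32 moved that share in wild type to 13.2%, and between genotypes in MDP to 0%, against 41.8%. Without probe sets of the suffixes _s_at, _x_at and _a_at, 4 members were apart in wild type, Ebf1 among them at 1.19. Of the 212 values of single members under other settings or from other probe sets above the floor, 28 moved by more than the SD between probe sets. Changing only the floor that selects genes cannot move such a value, so those settings count as unmoved by design. Of the called values, 0 changed sign, but a fall to 0 was not counted as a change. Values near or below the floor (all of Rag1, Rag2, Pax5 and Ikzf3, and most of Il7r and Cd79b) limit what these arrays can show. The cause of these changes was not tested.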

Other observations

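Rag2 (2.60) and the leading probe set of Pax5 (1.49) gave identical values on the wild-type MDP and wild-type GMP arrays. Over all probe sets 253 (0.561%) did so for this pair of arrays, 81.4% of them below the floor. Of the 3 natural killer cell markers above the floor, Klrd1 read higher in MDP, at 1.94 in Trib1-/- cells and 1.16 in wild type, Prf1 read lower, at -0.86 and -1.08, and Eomes read 0.26 and 0.01. Klrd1 read 3.79 in Trib1-/- MDP and 3.13 in wild-type MDP, against 1.85 in Trib1-/- GMP and 1.96 in wild-type GMP, so it reached the floor only on Trib1-/- MDP. Among T cell markers, Gata3 was at least 2-fold higher in wild-type MDP (1.01) and read 0.63 in Trib1-/- cells.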
